A study of Mus musculus with 10 samples.

Results

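The translation initiation, elongation and release factors of the cytosol were described here in mouse liver. The members were all genes of the deposited expression table whose symbol begins with Eif and a digit or with Eef1 or Eef2, together with Etf1 and Gspt1, and they were 63 of the 10913 genes listed. The table lists genes counted in every biopsy, so a factor with a 0 in any library is not among them. All 63 passed the filter on low counts in all 4 comparisons.

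The libraries came from 10 wild-type C57BL/6 mice fed a western diet for 12 weeks, each biopsied once in the liver before any drug was given. Later, 3 mice received vehicle and 7 received obeticholic acid (OCA), an agonist of the bile acid receptor FXR. Of the 7, the study called 3 responders and 4 non-responders from the histology of the liver at the end of OCA treatment. All groups therefore shared genotype, strain and diet, no biopsy had seen OCA or its vehicle, and a difference between groups here is one between mice before treatment.

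Translation of an mRNA starts when the cap-binding complex eIF4F and the scaffold eIF3 bring the small ribosomal subunit, loaded with initiator tRNA by eIF2, to the 5′ end of the message. The subunit scans to the start codon, eIF5B joins the large subunit, eEF1A then delivers each aminoacyl-tRNA, and eEF2 moves the ribosome along until the release factors end the chain. Cells restrain the process through kinases that phosphorylate eIF2 and through eIF4E-binding proteins, which mTORC1 switches off when nutrients are plentiful. The liver, which makes most plasma proteins, translates heavily.

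Depth was 40432530 to 76529328 counts per biopsy. The ribosomal RNA precursor Rn45s took 3.70 to 6.87% of counts in vehicle biopsies, 11.0 to 23.5% in non-responders and 16.3 to 25.7% in responders. Vehicle biopsies therefore overlapped neither the non-responders nor the responders in this share. All 5 hepatocyte markers looked for were measured, with a summed level of 4031 to 4685 CPM (counts scaled to library size) in vehicle, 3794 to 5792 in non-responders and 3816 to 4952 in responders. The 3 of 5 cholangiocyte markers in the table (Krt19, Sox9 and Spp1) summed to 38.1 to 46.3 CPM in vehicle, 25.4 to 49.5 in non-responders and 21.3 to 27.8 in responders. In bulk tissue, fewer cells of a type and less RNA per cell cannot be told apart. In responders against vehicle, 3 hepatocyte markers (Alb, Apoa1 and Hnf4a) were higher and 1 (Cyp3a11) lower at an unadjusted p under 0.05, and the 5 had a median of 0.57 on the log2 scale. The cholangiocyte marker Spp1 (edgeR adjusted p = 0.0423) and the stellate cell marker Reln (adjusted p = 0.047) were called lower. All 5 stellate cell markers were measured and summed to 834 to 1098 CPM in vehicle, 596 to 1067 in non-responders and 711 to 903 in responders. In responders against vehicle 3 of these 5 lay higher and 2 lower, with a median of 0.016, so Reln does not stand for the list. In the same comparison the macrophage list (5 of 7 markers measured) gave 2 higher and 3 lower, with Csf1r (-0.55) lower at an unadjusted p under 0.05. The sinusoidal endothelium list (5 of 5 measured) gave 4 higher and 1 lower, none at that level, and neither list held a call. The lymphocyte and erythroid lists had 1 measured marker each, and the neutrophil and mesothelium lists 0. The part of these markers in the results that follow was not tested.

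Translation factors were abundant messages. Their median level over the 10 biopsies was 28.6 fragments scaled to transcript length and library size (FPKM), against 4.75 FPKM over all genes, and 83.3% of genes lay below the median factor. The 12 factors with a mean of at least 100 FPKM were led by Eef1a1, the carrier of aminoacyl-tRNA, at 1378 FPKM (823 to 2097). Eif5a, the hypusine-bearing factor that helps ribosomes through difficult peptide bonds, followed at 1010.1 FPKM (739 to 1446). The translocase Eef2 was at 293 FPKM (234 to 382). A gap separated Eif5a from Eef2, whereas the ranges of all 61 other neighbouring pairs in the order of levels overlapped between biopsies.

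The 3 members with a mean under 1 FPKM were enzymes that modify other factors. Eif2ak2, the double-stranded RNA sensor PKR, was at 0.294 FPKM, the eEF2 methyltransferase Eef2kmt at 0.473 FPKM and Eif2ak3, the endoplasmic reticulum stress sensor PERK, at 0.800 FPKM. Within eIF3, per-length levels ran from 14.4 FPKM for Eif3g to 162 FPKM for the largest subunit Eif3a, leaving aside the Eif3j paralogs described further on. Eif4g2, a scaffold related to eIF4G that lacks the binding site for eIF4E, was at 285 FPKM, above the eIF4F scaffold Eif4g1 at 131 FPKM, and their ranges (176 to 439 and 108 to 168 FPKM) did not overlap. The cap-binding subunit Eif4e was lower at 15.4 FPKM. Its inhibitors Eif4ebp1, Eif4ebp2 and Eif4ebp3 were at 43.0, 38.8 and 32.9 FPKM, so the mean of each inhibitor exceeded that of Eif4e on this per-length scale.

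As a share of all counts outside Rn45s, the 63 factors together took 1.45, 1.94 and 1.97% in vehicle biopsies, 1.79, 1.77, 1.66 and 1.48% in non-responders, and 1.46, 1.36 and 1.33% in responders. Vehicle 1 stood apart from the other vehicle biopsies and reached down to the responder range. The median factor in vehicle 1 lay at -0.29 from the vehicle mean on the log2 CPM scale, while vehicle 2 and 3 lay at 0.062 and 0.17. Responders 1, 2 and 3 lay at -0.21, -0.38 and -0.43, and non-responder 4 at -0.29. Non-responders 1, 2 and 3 were at 0.016, -0.022 and -0.041, near the vehicle mean.

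**Figure D1:**
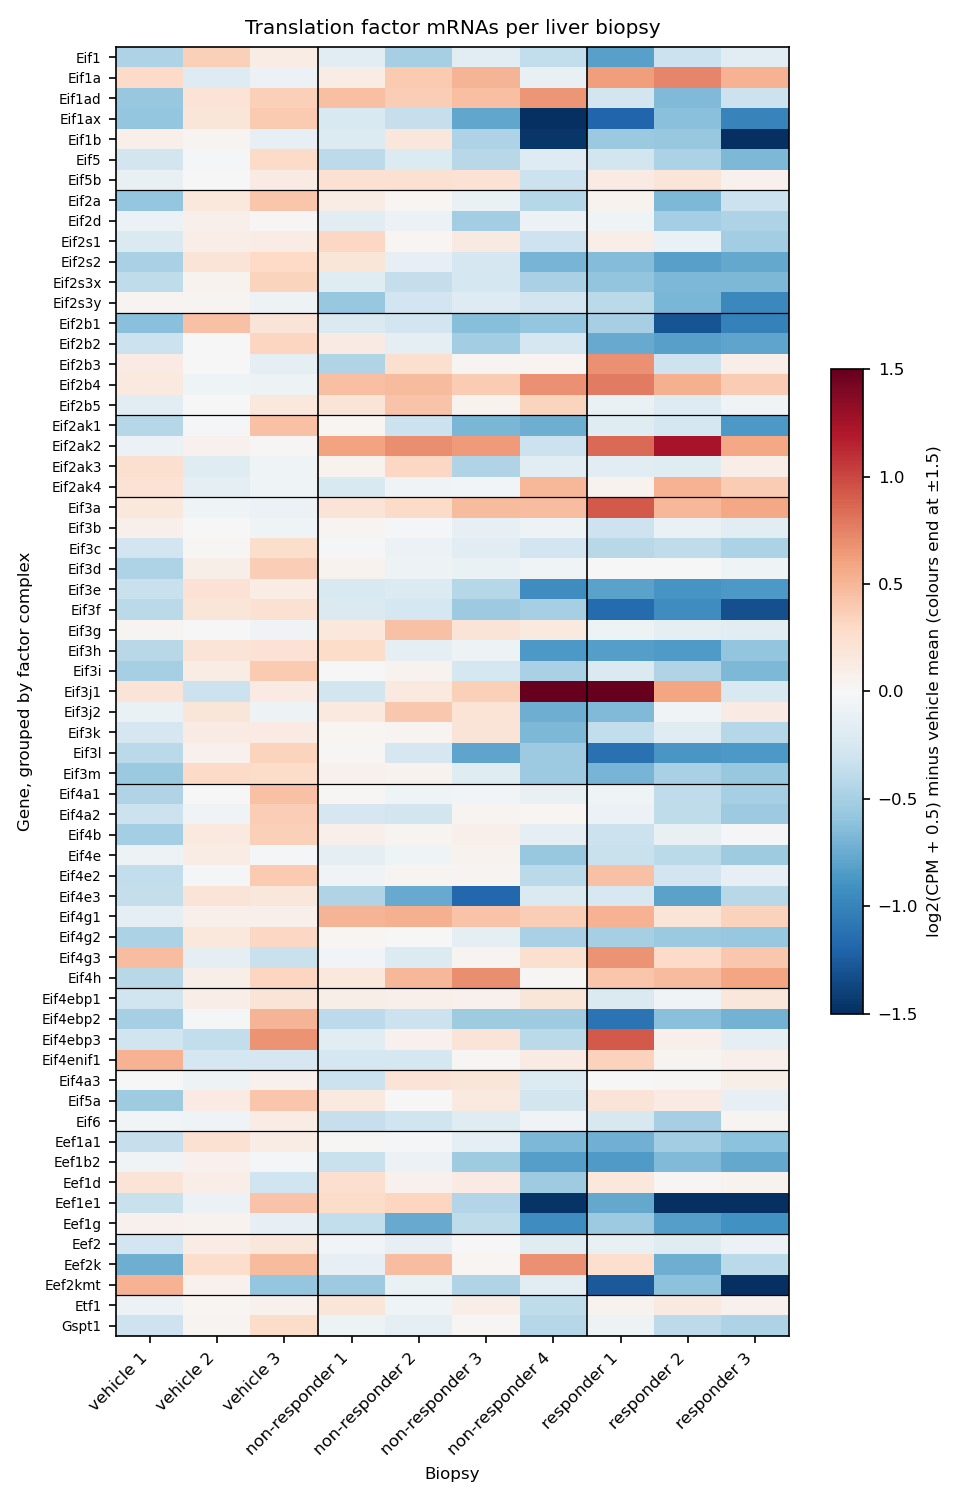
Level of each of the 63 factors in each biopsy, as log2(CPM + 0.5) minus the mean of the 3 vehicle biopsies, with genes in rows grouped by complex and biopsies in columns (black lines part the groups). Most eIF3 and eEF1 rows are blue in the 3 responders, 10 of the 14 eIF3 rows are lowest among the vehicle biopsies in vehicle 1, and Eif3a, Eif1a and Eif2b4 are red in the responders.

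Responders were compared with vehicle mice to ask whether livers that would later respond differed at the outset from those of mice later given vehicle. Translation factor messages were mostly lower in later responders, with subunits of eIF3 and of the eEF1 exchange complex at the front, while a few factors, Eif3a among them, ran the other way. In edgeR's quasi-likelihood test 5 of 63 factors (7.94%) passed an adjusted p of 0.05, against 4.52% of the 10785 genes tested, and all 5 were lower (1.98% of all genes were called lower and 2.54% higher). They were Eif3f, Eif3e, Eif3l, Eef1b2 and Eef1g. Over all members, 45 (71.4%) lay lower and 18 higher, where 50.8% of all genes lay lower, with a median log2 fold change of -0.35 against -0.012 over all genes. At an unadjusted p under 0.05, 22 members (34.9%) were lower and 5 (7.94%) higher, where all genes gave 13.1 and 12.9%. The 5 higher members include Eif3j1, whose row is uncertain as described further on. The groups did not overlap for 22 members that were lower (34.9%, against 16.4% of all genes) and 6 that were higher (9.52%, against 16.3%).

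The 5 calls depended on single biopsies. Without vehicle 1 the fit called 16 members (25.4%, against 7.84% of all genes), the 5 among them. When vehicle 2, vehicle 3 or any 1 of the 3 responders was left out instead, it called 0, although the 5 kept their sign in all 6 of these fits. The median over members moved from -0.35 to -0.47 without vehicle 1 and to -0.18 without vehicle 3. When the Rn45s share (log2) entered the model as a covariate, 0 members passed and the median was 0.091. Since that share does not overlap between vehicle and responders, the group and the Rn45s share cannot be told apart in this design. Groups of 3 against 3 allow no two-sided exact permutation p below 0.1, which each of the 5 genes reached.

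Eif3f, a subunit of the eIF3 scaffold that carries an MPN domain (chr7:108934417-108942951 in GRCm38), had 59.6, 90.3 and 92.7 CPM in vehicle biopsies, 68.0, 65.9, 54.4 and 55.9 in non-responders and 35.3, 41.4 and 31.4 in responders. The 3 responders were the lowest of all 10 biopsies, below every non-responder as well as every vehicle biopsy (log2 fold change -1.17, standard error 0.22, adjusted p = 0.0317). Eif3e, another scaffold subunit (chr15:43250058-43282719), had 46.4, 67.8 and 63.4 CPM in vehicle, 49.9, 50.7, 43.3 and 30.3 in non-responders and 33.4, 31.3 and 31.8 in responders. Its responders lay below all vehicle biopsies, while non-responder 4 was lower still (log2 fold change -0.89, standard error 0.19, adjusted p = 0.0423). Eif3l (chr15:79075179-79094405), which sits beside Eif3k at the edge of the complex, had 55.1, 76.0 and 92.2 CPM in vehicle, 73.9, 61.0, 41.8 and 50.0 in non-responders and 33.3, 39.6 and 39.8 in responders. Here too the responders were below all other biopsies (log2 fold change -0.99, standard error 0.22, adjusted p = 0.0436).

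Eef1b2 (chr1:63176825-63180486), the subunit that reloads eEF1A with GTP, had 65.9, 71.2 and 67.6 CPM in vehicle, 53.9, 64.0, 47.0 and 38.3 in non-responders and 37.6, 43.0 and 40.0 in responders. Vehicle biopsies were tightly grouped, and all OCA-group biopsies lay below them, with non-responder 4 inside the responder range (log2 fold change -0.77, standard error 0.15, adjusted p = 0.036). Its partner Eef1g (chr19:8967041-8978479), a structural subunit of the same exchange complex, had 358, 356 and 313 CPM in vehicle, 265, 201, 261 and 179 in non-responders and 234, 192 and 182 in responders. Again no OCA-group biopsy reached the vehicle range (log2 fold change -0.77, standard error 0.17, adjusted p = 0.0427). Of the sequence of Eef1g, 49.2% in words of 1 read length also occurs in other genes, chiefly the gene model Gm4366, so its count is less certain than those of the other 4, which share under 5%. Among all members 45 share under 5%, and Eif4ebp3 (62.7%), Eif4a1 (60.8%) and Eif2s3x (34.5%) share more.

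**Figure D2:**
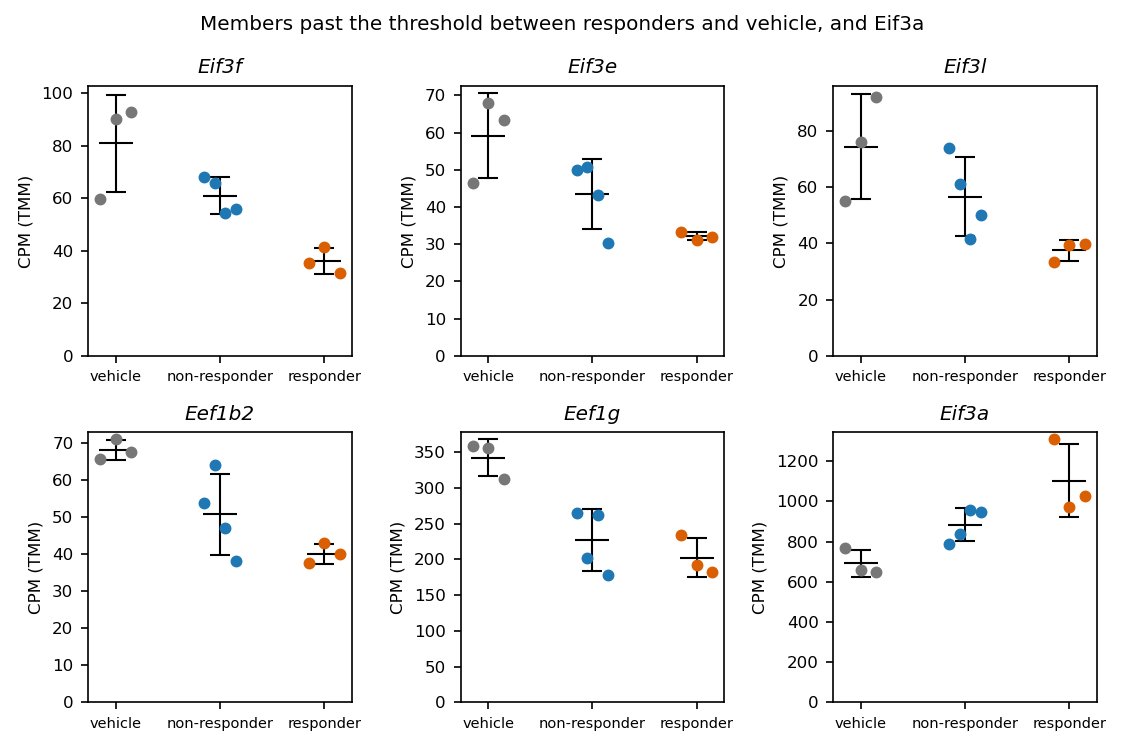
CPM (TMM-scaled, axis from 0) of the 5 factors called between responders and vehicle and of Eif3a, 1 point per biopsy, with the group mean (horizontal bar) and SD (error bars) for 3 vehicle, 4 non-responder and 3 responder biopsies. In the first 5 panels the responders lie below every vehicle biopsy, and in the Eif3a panel they lie above.

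Among the 14 eIF3 subunits, 12 were lower in responders than in vehicle mice and 3 passed the test. Over all genes 50.8% lay lower and 4.52% passed. The largest subunit Eif3a, around which the scaffold forms (chr19:60761117-60790658), lay on the higher side. It had 766, 660.1 and 647 CPM in vehicle, 789, 839, 959 and 949 in non-responders and 1308, 970.4 and 1028 in responders. All 3 responders exceeded all other biopsies, and all non-responders exceeded all vehicle biopsies, but the difference missed the threshold (log2 fold change 0.66, standard error 0.18, adjusted p = 0.0647). Eif3h, an MPN-domain subunit, had 68.0, 104 and 105 CPM in vehicle and 50.7, 50.1 and 60.0 in responders (log2 fold change -0.79, standard error 0.21, adjusted p = 0.0616). Splitting the complex by architecture, a split made after the values were seen, the 8 subunits with PCI or MPN domains had a median log2 fold change of -0.72 with 7 lower, and the 6 others, the Eif3j paralogs included, had -0.16 with 5 lower. Eif3b and Eif3d, outside that scaffold, gave -0.20 (95% interval -0.54 to 0.14) and -0.069 (-0.56 to 0.42).

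Counts for Eif3j, the loosely bound subunit, are split between the near-identical genes Eif3j1 and Eif3j2. Of the sequence of Eif3j2 in words of 1 read length, 83.9% also occurs in Eif3j1. In 8 biopsies Eif3j1 had 1 to 22 counts, but it had 1243 in non-responder 4 and 1061 in responder 1. In those same 2 biopsies Eif3j2 was at 32.4 and 34.0 CPM, against 50.2 to 71.9 CPM in the other 8, and the sum of both genes stayed between 50.4 and 72.1 CPM in all 10. The 2 rows are therefore uncertain one by one, and no fold change is given for Eif3j1.

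**Figure D3:**
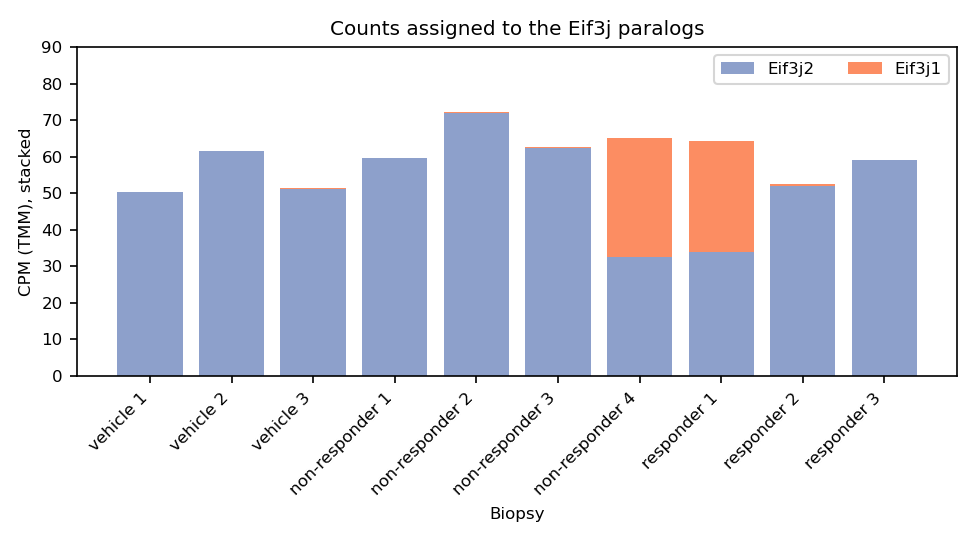
CPM assigned to Eif3j2 (blue) and Eif3j1 (orange), stacked, in each of the 10 biopsies. Orange takes up about as much as blue in non-responder 4 and responder 1 and at most a thin line in the other 8, and the total stays between 50.4 and 72.1 CPM.

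Of the 5 members in the eEF1 list, 4 were lower in responders and 2 passed, where 50.8% of all genes lay lower and 4.52% passed. Eef1a1, the most abundant factor, had 2330.1, 3469 and 3197 CPM in vehicle, 2993, 2912, 2673 and 1858 in non-responders and 1793, 2061 and 1927 in responders. Vehicle and responder biopsies did not overlap, and non-responder 4 again lay with the responders (log2 fold change -0.65, standard error 0.18, adjusted p = 0.0765). Eef1e1, better known as the multisynthetase protein AIMP3, was scarce, with 1.53, 1.90 and 2.93 CPM in vehicle and 0.996, 0.256 and 0.355 in responders (log2 fold change -2.01, standard error 0.57, adjusted p = 0.0765). Eef1d, the remaining exchange subunit, gave 0.054 (95% interval -0.46 to 0.56). The translocase Eef2 had 809.8, 1071 and 1117 CPM in vehicle and 916, 876 and 927 in responders, overlapping groups with a log2 fold change of -0.15 (-0.54 to 0.24). Its kinase Eef2k gave -0.35 (-1.26 to 0.56), and the methyltransferase Eef2kmt, at 0.118 to 2.30 CPM, gave -1.94 (-3.51 to -0.36).

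All 6 genes that load initiator tRNA were lower in responders (50.8% of all genes lay lower), with a median of -0.52 and none past the threshold. The paralogs Eif2s3x and Eif2s3y encode the gamma subunit of eIF2 from the X and the Y chromosome. Eif2s3x had 167, 226 and 276 CPM in vehicle, 193, 171, 181 and 155 in non-responders and 145, 136 and 137 in responders (log2 fold change -0.68, standard error 0.20, adjusted p = 0.0811). Eif2s3y had 109, 109 and 101.3 CPM in vehicle, 71.5, 87.1, 93.2 and 87.4 in non-responders and 80.4, 66.3 and 54.4 in responders (log2 fold change -0.68, standard error 0.18, adjusted p = 0.0642). Both copies were thus below all vehicle biopsies in every responder, by nearly the same amount. The beta subunit Eif2s2 gave -0.80 (adjusted p = 0.0762), and the alpha subunit Eif2s1, the target of the stress kinases, gave -0.17 (95% interval -0.63 to 0.29).

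The exchange factor eIF2B, which recharges eIF2 with GTP, was mixed. Its regulatory subunit Eif2b1 gave -1.02 (adjusted p = 0.115) and Eif2b2 gave -0.86 (adjusted p = 0.0777), whereas Eif2b4 had 30.7, 26.6 and 26.3 CPM in vehicle, 38.2, 38.6, 36.4 and 44.8 in non-responders and 48.0, 40.5 and 36.4 in responders. Every OCA-group biopsy was above every vehicle biopsy for Eif2b4 (log2 fold change 0.57, standard error 0.18, adjusted p = 0.103). Among the kinases of eIF2, PKR (Eif2ak2) had 0.742, 0.882 and 0.834 CPM in vehicle, 1.51, 1.65, 1.56 and 0.551 in non-responders and 1.88, 2.61 and 1.47 in responders. All but non-responder 4 of the OCA-group biopsies exceeded the vehicle biopsies (log2 fold change 1.27, standard error 0.38, adjusted p = 0.0853). The amino acid sensor GCN2 (Eif2ak4) gave 0.32 (95% interval -0.13 to 0.76) and PERK (Eif2ak3) gave -0.12 (-0.80 to 0.57), so differences in either direction are possible at this size.

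The eIF1A paralogs, which help the scanning subunit find the start codon, lay on opposite sides of 0. Eif1ax had 15.9, 27.4 and 31.8 CPM in vehicle, 20.5, 18.8, 13.8 and 8.23 in non-responders and 10.3, 15.4 and 11.8 in responders (log2 fold change -1.01, standard error 0.29, adjusted p = 0.0814). Eif1a had 21.6, 15.3 and 16.5 CPM in vehicle, 19.0, 23.2, 25.3 and 16.2 in non-responders and 27.3, 29.6 and 25.4 in responders (log2 fold change 0.62, standard error 0.21, adjusted p = 0.113). Neither passed, and in both the responders did not overlap the vehicle biopsies. For Eif1ax the gap was narrow, with vehicle 1 at 15.9 CPM just above the highest responder at 15.4 CPM. Eif5, the GTPase activator for eIF2, gave -0.49 (adjusted p = 0.156).

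For the cap-binding side, 6 of 10 members of the eIF4F list were lower (50.8% of all genes lay lower) and none passed. The cap-binding protein Eif4e had 85.2, 97.3 and 87.8 CPM in vehicle and 71.3, 67.7 and 62.1 in responders, without overlap (log2 fold change -0.44, standard error 0.15, adjusted p = 0.119). Eif4g2 had 1859, 2876 and 3209 CPM in vehicle and 1822, 1749.6 and 1741 in responders, where vehicle 1 lay just above the responders (log2 fold change -0.59, standard error 0.21, adjusted p = 0.129). The scaffold Eif4g1 pointed upwards, with 542, 635 and 634 CPM in vehicle, 858, 874, 813 and 777 in non-responders and 862, 686 and 765 in responders. Every OCA-group biopsy exceeded the vehicle range for Eif4g1, yet responders against vehicle gave 0.34 (95% interval -0.024 to 0.71), which turned to -0.025 in FPKM values without quantile normalization. The helicase Eif4a1 gave -0.36 (-0.91 to 0.19) and its cofactor Eif4b gave -0.20 (-0.73 to 0.33). Of the inhibitors of Eif4e, Eif4ebp2 had 64.3, 90.3 and 129.8 CPM in vehicle and 41.9, 58.7 and 55.6 in responders (log2 fold change -0.87, standard error 0.27, adjusted p = 0.0908), while Eif4ebp1 gave -0.049 (-0.50 to 0.41).

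Eif5a had 949, 1495 and 1825 CPM in vehicle and 1576, 1501 and 1260.3 in responders, with the responders inside the vehicle range. Its log2 fold change was 0.015 (95% interval -0.53 to 0.56). Eif6, which keeps free large subunits apart from small ones, gave -0.23 (-0.72 to 0.25). The release factor Etf1, which reads stop codons, gave 0.074 (-0.25 to 0.40), and its GTPase partner Gspt1 gave -0.33 (-0.78 to 0.12). Of the remaining members, the start-codon factor Eif1b had an interval of -1.98 to -0.025, and the eIF3 subunits Eif3m and Eif3c gave -0.64 (-1.20 to -0.089) and -0.45 (-0.85 to -0.039). Every member not named in these paragraphs lay between -0.51 (Eif4e3) and 0.46 (Eif4h) and missed the threshold.

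**Figure D4:**
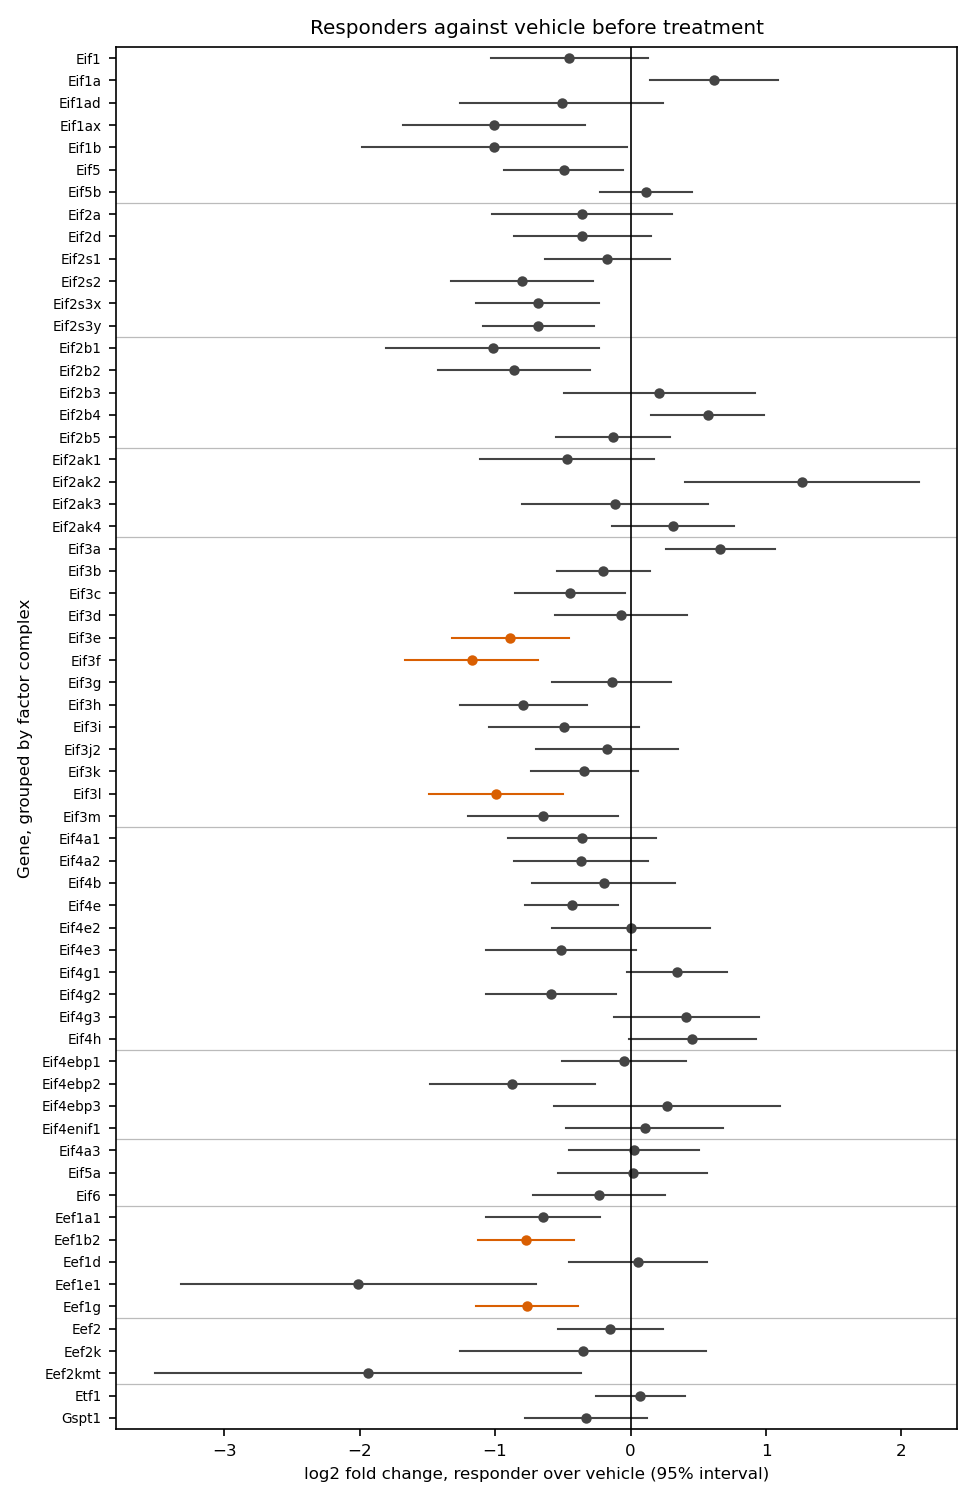
Log2 fold change of each factor except Eif3j1, responders over vehicle (3 against 3 biopsies), with its 95% interval derived from the edgeR F statistic and genes grouped by complex. Orange marks the 5 factors past an adjusted p of 0.05, all to the left of 0, and Eif3a, Eif1a, Eif2b4 and Eif2ak2 lie to the right with intervals clear of 0.

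Messages of the translation apparatus often carry a 5′ terminal oligopyrimidine (TOP) tract, an unbroken run of C and T from the first base, through which mTORC1 controls their translation. Of the 9 members listed as TOP mRNAs (Eef1a1, Eef1b2, Eef1d, Eef1g, Eef2, Eif3e, Eif3f, Eif3h and Eif4b), 8 were lower in responders than in vehicle mice and 4 passed, with a median of -0.77. The 80 cytosolic ribosomal proteins, the classical TOP messages, gave 74 lower, 22 called lower and 1 called higher, with a median of -0.68. Over all genes in this comparison 50.8% lay lower, 1.98% were called lower and 2.54% called higher. The TOP list was drawn up with these results known and is no independent evidence of their direction.

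The start sites of a selection of members, made with their fold changes known, are shown because TOP tracts lie there. RefSeq promoter windows (GRCm38.p6) covered 49 of the 63 members, and each line gives 15 bases on either side of the annotated start, 5′ to 3′, with the longest run of C and T on the gene's strand in capitals.
Eif3f, chr7:108934400-108934429, plus strand: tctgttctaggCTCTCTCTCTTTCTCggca
Eif3l, chr15:79075208-79075237, plus strand: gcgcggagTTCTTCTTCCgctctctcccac
Eef1a1, chr9:78481710-78481739, minus strand: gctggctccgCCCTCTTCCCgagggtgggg
Eif2s3x, chrX:94212637-94212666, minus strand: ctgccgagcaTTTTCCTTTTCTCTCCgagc
Eif2s3y, chrY:1010580-1010609, plus strand: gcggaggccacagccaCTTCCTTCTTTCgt
Eef1b2, chr1:63176816-63176845, plus strand: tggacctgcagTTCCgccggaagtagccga
Eif3a, chr19:60790679-60790708, minus strand: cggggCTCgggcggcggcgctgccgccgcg

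A run of at least 10 C or T bases, with no other letter asked for and only the gene's strand read, was found in 8 of the 49 members (16.3%) and in 7.49% of the 8252 genes of the table that have a window, taking the longest run where a gene had several windows. With a minimum of 8 bases the shares were 20.4 and 15.5%, and the median longest run was 4 bases in members and 5 in genes of the table. The 8 were Eef1a1, Eif2b5, Eif2s3x, Eif2s3y, Eif3f, Eif3l, Eif4e and Eif4enif1. The lines above leave out Eif2b5, which has the longest run (19 bases), Eif4e and Eif4enif1. Of the 8, 7 were lower in responders than in vehicle mice, 6 of them at an unadjusted p under 0.05, with a median of -0.66. The 41 members with a shorter run gave 29 lower, 12 at that level, and a median of -0.34. Over all genes 50.8% lay lower, and 13.1% were lower at that level. Of the listed TOP mRNAs, Eef1a1 and Eif3f reach 10 bases, whereas Eif4b has a run of 7, Eef1b2, called lower, of 4, and Eef2 of 2. Eef1d, Eef1g, Eif3e and Eif3h, also listed, have no window. Eif3a, which lay higher, has a run of 3. The match depends on which start RefSeq annotates and describes letters, not use.

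Fold changes were also set against transcript length. Between responders and vehicle, the 31 members whose longest coding transcript is under the median of 2556 bases had a median log2 fold change of -0.51, with 27 lower, and the 32 others had -0.16, with 18 lower. The rank correlation of fold change with transcript length was 0.32 across the 63 members and 0.089 across 10540 genes, where genes are not independent replicates. Subtracting a smooth length trend fitted over all genes left a member median of -0.31.

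Responders were compared with non-responders to ask what set them apart before OCA. No factor passed in edgeR, as for all 10826 genes tested (0%), while DESeq2 called 2, Eif3f and Eif1ad (3.17% of members, against 2.52% of all genes). At an unadjusted p under 0.05, 12 members (19.0%) were lower and 1 higher, against 6.13 and 7.74% of all genes. In both directions together these were 13 members and 1502 of 10826 genes. With the Rn45s share (log2) as a covariate, 5 members and 1218 genes reached that level, and the member median was -0.095. Fits without 1 biopsy gave 4 members without non-responder 2 (1042 of 10807 genes) to 22 without non-responder 4 (2155 of 10809 genes). Members were lower in 43 of 63 cases (68.3%, against 50.8% of all genes), with a median of -0.17 against -0.0086 over all genes, and 11 (17.5%) that were lower and 3 (4.76%) that were higher did not overlap, against 6.64 and 7.65% of all genes. Eif3f stood first, with the responder values of 31.4 to 41.4 CPM below the non-responder values of 54.4 to 68.0 CPM (log2 fold change -0.76, standard error 0.17, adjusted p = 0.197). Eif1ad, a protein with an eIF1A-like domain, had 5.63, 4.19 and 5.46 CPM in responders and 9.68, 9.13, 9.69 and 11.3 in non-responders (log2 fold change -0.96, standard error 0.24, adjusted p = 0.203). The vehicle biopsies had 4.51, 8.09 and 9.03 CPM of it, which overlapped the responders and ended just below the lowest non-responder.

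Eif4g3, a further eIF4G paralog, was the 1 member higher at an unadjusted p under 0.05, and Eif1a and Eif3a were the others of the 20 members on the higher side whose groups did not overlap. Eif4g3 had 271, 208 and 225 CPM in responders and 165, 147, 175 and 201 in non-responders (log2 fold change 0.45, standard error 0.16, adjusted p = 0.272). Eif4g2 had 1822, 1749.6 and 1741 CPM in responders and 2631, 2569.5, 2357 and 1839 in non-responders, a narrow gap set by non-responder 4 (log2 fold change -0.41, standard error 0.16, adjusted p = 0.302). Eif2b2 (log2 fold change -0.64, standard error 0.23, adjusted p = 0.275), Eif2s2 (log2 fold change -0.56, standard error 0.21, adjusted p = 0.298) and Eif3l (log2 fold change -0.59, standard error 0.21, adjusted p = 0.273) followed. Eef2, Eif5a and Eif4e gave -0.040, 0.062 and -0.26, each with a 95% interval that includes 0.

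The 7 OCA-group mice together were compared with vehicle mice to see how far the arms differed before dosing. No factor passed in edgeR, against 1.19% of 10844 genes, and DESeq2 called 3, namely Eef1g, Eif2b4 and the uncertain Eif3j1 (4.76% of members, against 6.13% of all genes in DESeq2). At an unadjusted p under 0.05, 12 members (19.0%) were lower and 5 (7.94%) higher, Eif3j1 among the 5, against 8.61 and 10.6% of all genes. The median was -0.20, with 43 lower (68.3%, against 49.8% of all genes), and 3 members on each side did not overlap (4.76%, against 4.77% of all genes lower and 5.51% higher). Eef1g came closest, at 179 to 265 CPM in OCA-group biopsies and 313 to 358 CPM in vehicle (log2 fold change -0.66, standard error 0.16, adjusted p = 0.0607). On the higher side were Eif2b4 (log2 fold change 0.54, standard error 0.15, adjusted p = 0.0901), Eif4g1 (log2 fold change 0.42, standard error 0.14, adjusted p = 0.128) and Eif3a (log2 fold change 0.50, standard error 0.17, adjusted p = 0.136). In these 3, in Eef1g, in Eef1b2 and in Eif2s3y all 7 OCA-group biopsies lay outside the vehicle range, which gives the smallest two-sided p this design allows in an exact permutation test, 0.0167. The median over members was -0.31 without vehicle 1, -0.11 without vehicle 3 and 0.26 with the Rn45s share as a covariate. That share does not overlap between vehicle and OCA-group biopsies, so it cannot be told apart from the group here either.

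Non-responders against vehicle gave 0 calls among 63 members in edgeR and in DESeq2, where edgeR called 0.0462% and DESeq2 3.53% of 10832 genes. At an unadjusted p under 0.05, 5 members (7.94%) were lower and 4 (6.35%) higher, the uncertain Eif3j1 among the 4, against 6.36 and 8.24% of all genes. The median was -0.13, with 47 lower (74.6%, against 50.4% of all genes), and 3 members lower and 5 higher did not overlap (4.76 and 7.94%, against 7.64 and 8.76% of all genes). Leading were Eef1g (log2 fold change -0.59, standard error 0.18, adjusted p = 0.204), Eif4g1 (log2 fold change 0.47, standard error 0.14, adjusted p = 0.204) and Eif2b4 (log2 fold change 0.51, standard error 0.16, adjusted p = 0.204). Eif3f gave -0.40 (95% interval -0.82 to 0.024) and Eef1b2 -0.42 (adjusted p = 0.342). The median over members was -0.010 without vehicle 3, -0.25 without vehicle 1 and 0.30 with the Rn45s share as a covariate. Vehicle and non-responder biopsies do not overlap in that share, so group and share cannot be told apart. The 3 comparisons with vehicle use the same 3 control biopsies, so their values for a gene are not independent of each other.

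**Figure D5:**
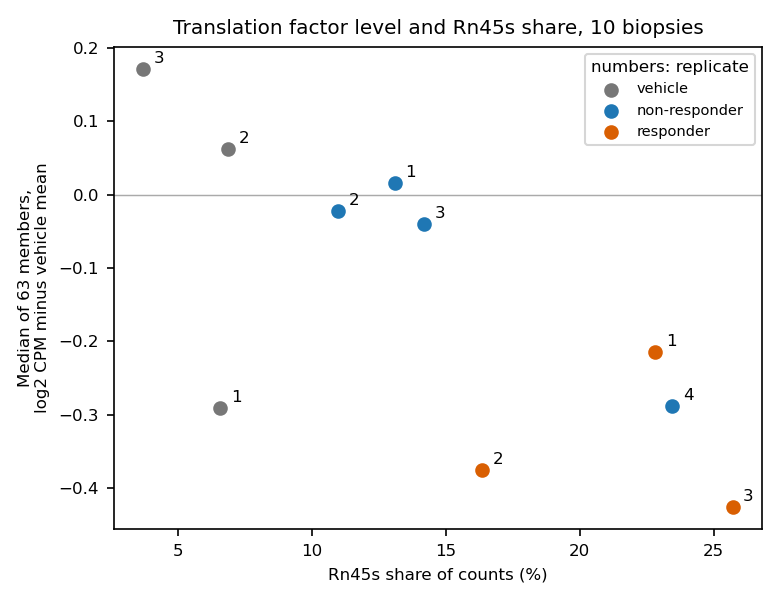
Median over the 63 factors of log2 CPM minus the vehicle mean (vertical axis) against the percent of counts taken by Rn45s (horizontal axis), 1 point per biopsy, numbered by replicate and coloured by group. Responders and non-responder 4 lie at the lower right, between 16.3 and 25.7% Rn45s, while vehicle 1 lies low at 6.58% Rn45s.

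Non-responder 4, with 23.5% Rn45s, was the non-responder nearest to the responders in many factors. Its Eif3e, Eef1g and Eif1ax lay at or below the lowest responder, at 30.3, 179 and 8.23 CPM, and its Eef1b2 and Eef1a1 lay within the responder range. Its Eif3f, at 55.9 CPM, did not. The other 3 non-responders had 11.0 to 14.2% Rn45s. Vehicle 1, at 6.58% Rn45s, was the lowest of the 3 vehicle biopsies for 44 of the 63 factors and the highest for 15, Eef1g, Eif3a, Eif4g3 and Eif2b4 among them.

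Genes that work with the factors but lie outside their naming were read from lists of partners. In responders against vehicle, 1 of 22 cytosolic aminoacyl-tRNA synthetases passed, as did 1 of 19 poly(A), cap and scanning partners, both higher, where 4.52% of all genes passed. Of the 22 synthetases 13 lay lower and 9 higher, with a median of -0.17, where 50.8% of all genes lay lower. At an unadjusted p under 0.05, 5 synthetases were lower and 2 higher, where all genes gave 13.1 and 12.9%. The groups did not overlap for 10 synthetases that were lower and 2 that were higher, against 16.4 and 16.3% of all genes. The lists of ribosome recycling (7 genes), mTORC1 (10), eIF2 phosphorylation (7), factor modification (8) and mitochondrial translation (8) held no gene past the threshold in edgeR, with 0 to 3 genes each at an unadjusted p under 0.05. The synthetase was Eprs, which charges glutamate and proline tRNA, at 412 ± 90.5 CPM (SD, n = 3) in responders and 185 ± 21.3 CPM (n = 3) in vehicle (log2 fold change 1.15, standard error 0.21, adjusted p = 0.0312). Ctif, which links the nuclear cap-binding complex to translation, was at 129.7 ± 25.9 CPM and 62.8 ± 7.89 CPM (log2 fold change 1.04, standard error 0.20, adjusted p = 0.0351). Eprs passed in 2 of 6 fits with 1 biopsy left out, and Ctif in 1. The seryl-tRNA synthetase Sars was next, at 95.8 ± 9.25 CPM against 62.3 ± 6.00 CPM (log2 fold change 0.61, standard error 0.16, adjusted p = 0.0618).

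Between responders and non-responders, where no gene of the table passed, the smallest p among partners belonged to Impact, an inhibitor of GCN2, at 15.9 ± 1.93 CPM in 3 responders and 6.22 ± 1.80 CPM in 4 non-responders (log2 fold change 1.36, standard error 0.26, adjusted p = 0.186). Eprs (log2 fold change 0.94, standard error 0.19, adjusted p = 0.186) and Ppp1r15b, which directs the phosphatase of eIF2 (log2 fold change -0.65, standard error 0.19, adjusted p = 0.226), followed. In the OCA mice against vehicle the first 3 were Sars (log2 fold change 0.56, standard error 0.14, adjusted p = 0.0624), Ctif (log2 fold change 0.80, standard error 0.21, adjusted p = 0.0773) and the mitochondrial factor Gfm2 (log2 fold change -0.58, standard error 0.16, adjusted p = 0.0874). In non-responders against vehicle they were Ppp1r15a, the stress-induced partner of the same phosphatase (log2 fold change 1.19, standard error 0.31, adjusted p = 0.168), the mitochondrial initiation factor Mtif3, which was under 1 CPM (log2 fold change 1.68, standard error 0.45, adjusted p = 0.173), and Sars (log2 fold change 0.51, standard error 0.14, adjusted p = 0.176).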

How the data were processed

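RNA-seq was made from 10 mouse liver biopsies. Per the labels and the study's methods, read quality was checked in FastQC 0.11.7, Trimmomatic 0.38 removed poor bases, HISAT2 2.1.0 placed reads on mm10, and StringTie quantified genes. The labels name both a stranded TruSeq and a SMARTER kit. The StringTie version, the use of strand and the origin of the whole counts are not stated in those sources. Deposited per gene by the authors were read counts, FPKM values and quantile-normalized log2 values, the last not used. The authors also deposited their own fold changes, p-values and score columns (volume, statistic and spread of each comparison), which were not used either.

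The main test was edgeR 4.0.16 (R 4.3.3) on the deposited counts, with TMM scaling, filterByExpr (minimum count 10, minimum total 15), quasi-likelihood tests and Benjamini-Hochberg adjustment over all genes at 0.05. A fit contained the compared groups alone. CPM were scaled by TMM across the 10 biopsies, with a prior count of 2 for log2 CPM. FPKM served to compare levels between genes. Alternatives used limma 3.58.1 and DESeq2 1.42.0. The members, partner lists and TOP list were chosen with earlier results of these data known. Named were members past the threshold, the leading members of each complex by p, a set of core factors, the extremes of level and the 3 leading partners per comparison. The edgeR test was also run on counts simulated from its own fitted spread with planted changes. That simulation modelled no Rn45s difference between groups and no outlying biopsy, so it does not speak to either. Coordinates come from GENCODE M21 on GRCm38 (mm10), start windows from RefSeq on GRCm38.p6. Replicate numbers were not taken to pair mice. P-values test a group difference against the spread between single mice. Median chi-squares of 9.13 to 33.5 between biopsies of a group, against 0.455 from counting alone, showed no repeated library. Intervals cover the fitted spread between mice. Some start windows were not used here.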

Additional observations from a re-analysis of the deposited data

Results flagged for a closer look

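With 4 non-responders, 4 of the 63 factors had 1 biopsy set far apart from the other 3 of its group, and 3 of the 4 were in non-responder 4. Chance alone sets about 1 in 20 groups apart in this way. Eif5b, which joins the ribosomal subunits, was at 69.4 CPM in non-responder 4 against 101.1 to 102.0 CPM in the others. Eif2ak2 was at 0.551 CPM in non-responder 4 against 1.51 to 1.65 CPM. Eif3j1 was at 32.6 CPM in non-responder 4 against 0.032 to 0.326 CPM, where Eif3j2 was low and the sum of the paralogs was not. Eif3g was at 20.7 CPM in non-responder 2 against 16.9 to 17.4 CPM. Non-responder 4 also had the highest Rn45s share of its group, 23.5%, and the part of that share in these values was not tested.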

How the results depend on the processing

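In responders against vehicle, where 5 factors were called, DESeq2 called 19 (30.2%, against 14.4% of all genes), limma on log2(FPKM + 1) without quantile normalization 28 (44.4%, against 18.3%), limma with a pseudocount of 0.1 called 1 (1.59%, against 2.21%), and 1 spread over all 3 groups gave 10 (15.9%, against 8.56%). The replicate block and the Rn45s covariate each gave 0, and fits without 1 biopsy gave 0 to 16. In OCA mice against vehicle, where edgeR called 0, DESeq2 called 3 (4.76%, against 6.13% of all genes), limma on log2(FPKM + 1) called 1, Eef1g, with and without quantile normalization (1.59%, against 2.40 and 3.57%), 1 spread over all groups gave 2 (3.17%, against 3.01%), and fits without 1 biopsy gave 0 to 1. In responders against non-responders DESeq2 called 2 (3.17%, against 2.52%). Without quantile normalization the median over members was -0.39 (responders against non-responders), -0.41 (OCA against vehicle) and -0.65 (responders against vehicle), where the median over all genes moved to -0.15, -0.17 and -0.24. The cause of these changes was not tested.

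In the comparisons with vehicle the Rn45s share does not overlap between the groups, so it cannot be told apart from the group. With it as a covariate, the medians were 0.26 (OCA against vehicle), 0.091 (responders against vehicle) and 0.30 (non-responders against vehicle). Signs turned for OCA against vehicle in Eef1b2 (0.080), Eif1ax (0.42), Eif2s3x (0.13), Eif3a (-0.0053), Eif3e (0.16), Eif3f (0.24), Eif3l (0.28) and Eif4ebp2 (0.18). They turned for responders against vehicle in Eef1d (-0.71), Eef2 (0.12), Eef2k (0.19), Eif1ax (0.21), Eif2s1 (0.28), Eif2s3x (0.027), Eif3c (0.22), Eif3d (0.76), Eif4a1 (0.65), Eif4b (0.51), Eif4ebp1 (0.21), Eif4ebp2 (0.44), Eif4g2 (0.039), Eif5 (0.23) and Gspt1 (0.25), and for non-responders against vehicle in Eif4ebp2 (0.18). In limma, responders against vehicle turned in Eif2ak3 (0.021, or 0.044 with the pseudocount of 0.1) and Eif5a (-0.12 with either pseudocount), and without quantile normalization in Eef1d (-0.26), Eif2ak4 (-0.049), Eif4g1 (-0.025), Eif5a (-0.32) and Etf1 (-0.28). Eif5a in responders against non-responders turned to -0.15 in limma with either pseudocount, to -0.16 without quantile normalization and to -0.026 with the replicate block. In fits without 1 biopsy it ranged over -0.022 to 0.15, and responders against vehicle ranged over -0.22 to 0.042 for Eif2ak3, -0.26 to 0.13 for Eif3d, -0.086 to 0.17 for Eef1d, -0.20 to 0.23 for Eif5a and -0.18 to 0.048 for Eif4ebp1, while 90 of 96 named differences kept their sign in each such fit. DESeq2 size factors in edgeR and no filter on low counts changed no call.

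Same-numbered biopsies of different groups did not deviate together: 0 of 9 pairs had a correlation over 0.1 (-0.073 to 0.055) and 3 of 9 correlated best with their own number. With so few biopsies per group this cannot show that no pairing exists. The main fits treat the numbers as names, and the replicate block is given for completeness.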
